A study of Saccharomyces cerevisiae with 24 samples.

Results

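The 40 genes described here encode ribosome biogenesis factors of *Saccharomyces cerevisiae*, the nucleolar proteins that process rRNA and assemble the ribosomal subunits. They were taken by ORF name from a count table of 6692 ORFs, on their known function and not on any measured value. Earlier results of these data were known when they were chosen. All 40 were among the 6616 ORFs that passed a filter on low counts. RNA was sequenced in 24 libraries from 3 strains at 3 times. The study places the post-diauxic shift period at about 24 hr. WT was JS1256, *snf1*∆ was JS1394, in which the kinase gene *SNF1* is replaced by *kanMX4*, and JS1416 was a suppressor of JS1394 that arose spontaneously and also carries a missense mutation of *CYC8*. All are *MAT*a strains of the BY4741 background, with the auxotrophies *his3∆1*, *leu2∆0*, *met15∆0* and *ura3∆0*. JS1416 is a single isolate. *CYC8* is the sole mutated gene that the study's genome sequencing lists for it, and the genome reads were not analysed here. The sample labels give YPD medium with 2% glucose and a log phase sample at 5 hr, whereas the study's methods give SC medium and another time for log phase. At each of the 3 times there were 3 WT and 3 *snf1*∆ libraries, whereas the JS1416 libraries numbered 1, 2 and 3 at these times.

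Ribosome assembly starts in the nucleolus, where snoRNA-guided enzymes modify the nascent rRNA, the small subunit processome folds and cuts its 5′ part, and large subunit factors, helicases and GTPases build the pre-60S particle for export. In yeast the genes for these factors form a large co-regulated set, high in fast growth and low after glucose is used up or under stress. Many of their promoters hold a pair of short motifs named PAC and RRPE. The repressors Tod6 and Dot6 bind PAC, Stb3 binds RRPE, and the activator Sfp1 and the kinase Sch9, which acts on the repressors, tie the set to nutrient signals.

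The libraries held 747098 to 29070805 counts, and a member gene had between 3 and 30209 counts. Levels are given as CPM, counts scaled to library size with TMM factors. *SNF1*, the deleted gene, lay between 46.2 and 71.7 CPM in the 9 WT libraries and at 4.08 CPM or less in every *snf1*∆ and JS1416 library. At 48 hr, 2 libraries stood apart from their labels. Across all genes, Pearson correlations of the one labelled *snf1*∆ replicate 3 were higher with JS1416 replicate 2 (0.984) and replicate 3 (0.939) than with its own strain (0.905 and 0.901). Those of the one labelled JS1416 replicate 1 were higher with *snf1*∆ replicate 1 (0.984) and replicate 2 (0.98) than with its own strain (0.928 and 0.884). Over the 40 genes alone these correlations across strains were 0.958 and 0.88 for the first and 0.971 and 0.978 for the second. Counts of genes called in comparisons with 48 hr are therefore given with and without these 2 libraries. Since all groups share 1 estimate of the spread, leaving them out also changed the calls at earlier times, where the number of member genes called was within 1.5 times except between *snf1*∆ and WT at log.

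Of the 40 promoters, each taken as 250 bases before and 50 after the start of the coding sequence, 38 (95%) held the PAC letters GATGAG on either strand, and 20.4% of 6001 promoters of protein-coding genes did. The RRPE letters AAAAATTT occurred in 34 (85%), and in 14.1% of all promoters. Both were present in 33 (82.5%) against 5.63%. The letters AGGGG of the stress response element, read on both strands, occurred in 5 of the 40 (12.5%) and in 21.6% of all. *UTP22* alone of the 40 held neither PAC nor RRPE, *UTP15* held RRPE alone, and *MPP10*, *DBP6*, *MAK5*, *NOC3* and *SDA1* held PAC alone. Overlapping copies of a motif were each counted. A match describes the letters in the window and not the binding of a factor.

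Promoters of 6 genes are shown because they bracket the responses below. They run from 250 to 41 bases before the start codon in the 5′ to 3′ direction of the gene, and come from the RefSeq annotation of the R64 genome. *NOP56* and *HAS1* were among the 3 genes with the largest fall in WT, *MPP10* and *DBP6* among the 3 with the smallest, *NOP1* had the highest level per kb in WT at log, and *DBP3* stood apart in JS1416. Capitals mark the PAC letters (GATGAG or its complement CTCATC) and the RRPE letters (AAAAATTT or AAATTTTT).
*NOP56* promoter, chrXII:545847-546056, plus strand: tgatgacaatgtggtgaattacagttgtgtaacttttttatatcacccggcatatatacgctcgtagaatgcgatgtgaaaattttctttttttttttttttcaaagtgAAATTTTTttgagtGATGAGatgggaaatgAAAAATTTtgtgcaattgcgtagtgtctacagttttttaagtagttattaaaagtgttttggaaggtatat
*HAS1* promoter, chrXIII:851632-851841, minus strand: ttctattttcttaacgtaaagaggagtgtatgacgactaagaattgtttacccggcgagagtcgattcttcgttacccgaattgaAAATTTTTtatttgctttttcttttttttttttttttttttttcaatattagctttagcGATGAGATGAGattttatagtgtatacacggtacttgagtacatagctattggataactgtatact
*NOP1* promoter, chrIV:427114-427323, plus strand: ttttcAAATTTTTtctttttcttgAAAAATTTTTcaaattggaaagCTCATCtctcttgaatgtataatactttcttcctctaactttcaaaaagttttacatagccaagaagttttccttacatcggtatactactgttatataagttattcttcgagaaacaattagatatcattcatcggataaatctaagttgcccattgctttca
*DBP3* promoter, chrVII:361900-362109, minus strand: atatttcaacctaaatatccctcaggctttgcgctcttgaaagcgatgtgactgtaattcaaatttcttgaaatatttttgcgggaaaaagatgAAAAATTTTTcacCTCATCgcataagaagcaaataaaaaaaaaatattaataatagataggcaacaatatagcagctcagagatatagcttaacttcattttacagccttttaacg
*MPP10* promoter, chrX:438615-438824, plus strand: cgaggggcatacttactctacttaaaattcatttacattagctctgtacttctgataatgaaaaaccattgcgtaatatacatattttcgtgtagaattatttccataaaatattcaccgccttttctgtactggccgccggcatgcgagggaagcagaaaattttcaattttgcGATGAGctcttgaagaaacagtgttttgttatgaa
*DBP6* promoter, chrXIV:695345-695554, plus strand: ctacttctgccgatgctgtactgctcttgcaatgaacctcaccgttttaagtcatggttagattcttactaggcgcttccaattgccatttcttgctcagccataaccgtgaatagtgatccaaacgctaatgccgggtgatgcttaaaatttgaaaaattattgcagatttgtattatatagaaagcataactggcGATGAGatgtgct
*NOP56*, *HAS1*, *NOP1* and *DBP3* held PAC and RRPE in this stretch. *MPP10* and *DBP6* held PAC and no RRPE, with the first PAC base at position -75 and -53 from the start codon, nearer to it than in *NOP56* (-127) and *NOP1* (-204).

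In WT all 40 genes fell between log and 24 hr, with a median change of -3.74 on the log2 scale, or 13.3-fold, and a range from -6.52 to -1.35. Over all genes tested the median was 0.10, and 38.5% were called lower. In *snf1*∆ the same comparison had a median of -1.53 (2.89-fold) and called 38 of the 40 lower, against 30.5% of all genes. The fall was smaller in *snf1*∆ for 39 of the 40 by the test of the difference of responses (median difference 2.31 on the log2 scale), and 29.3% of all genes were higher by that test. JS1416 had 1 library at log, so its change has no test. Its median was -2.70 (6.51-fold), and all 40 of its values were below 0. A gene was called at a p under 0.05 in the quasi-likelihood test of edgeR, after Benjamini-Hochberg adjustment over all genes. Each value is a share of a library, so that a smaller share in every cell and a larger share in fewer cells cannot be told apart.

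**Figure D1:**
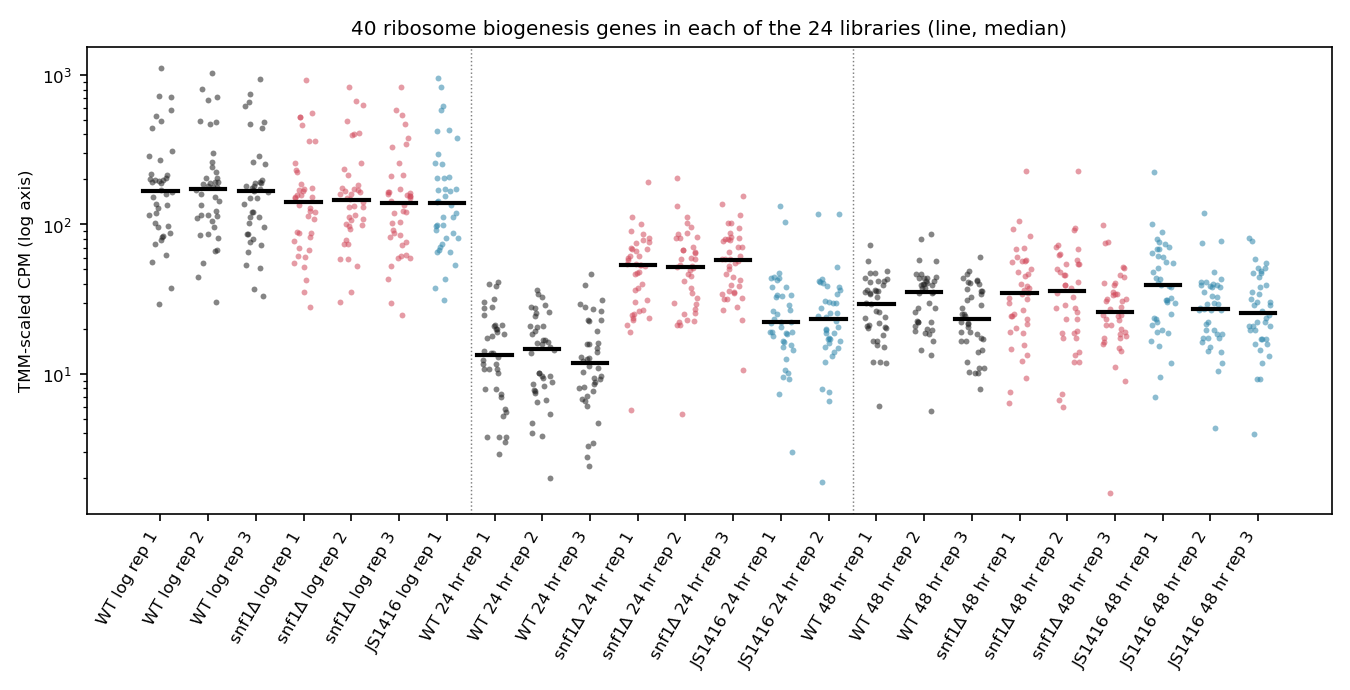
TMM-scaled CPM (log axis) of the 40 genes in each of the 24 libraries, with each point 1 gene and each black line the median of the 40. At log the medians were 167 to 174 in WT, 140 to 145 in *snf1*∆ and 139 in JS1416, and at 24 hr they were 11.7 to 14.7 in WT, 52.2 to 57.9 in *snf1*∆ and 22.1 to 23.4 in JS1416.

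Markers of growth state moved beside these genes. *HSP12*, a stress-induced membrane protein gene, had 13700, 12500 and 14100 CPM in WT at 24 hr, 3230 and 3900 in JS1416 and 479, 503 and 591 in *snf1*∆. *CTT1*, the cytosolic catalase gene, had 1150, 1110 and 1870 CPM in WT, 1370 and 1360 in JS1416 and 433, 365 and 302 in *snf1*∆ at that time. *ADH2*, a glucose-repressed alcohol dehydrogenase gene, had 291, 236 and 208 CPM in WT, 245, 260 and 189 in *snf1*∆ and 666 and 777 in JS1416 at 24 hr. Its log libraries held 1050, 876 and 869 CPM in WT, 1130, 993 and 882 in *snf1*∆ and 788 in JS1416. By edgeR's test *ADH2* thus fell from log to 24 hr in WT (log2 -1.93 ± 0.39 (SE), adjusted p = 0.000141) and in *snf1*∆ (log2 -2.11 ± 0.39 (SE), adjusted p = 8.81e-05). *HSP12* was thus ordered at 24 hr opposite to 30 of the 40 genes, those with JS1416 between the other strains (14.9% of all genes were so placed). At that time *CTT1* overlapped between WT and JS1416 and was lower in *snf1*∆, and *ADH2* was higher in JS1416 than in the other strains. The part of these markers in the result was not tested. Sequence shared with other genes was checked for the 40 and not for these markers.

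The snoRNP proteins fell the most. The 6 genes of this group, the box C/D proteins *NOP1*, *NOP56* and *NOP58*, the box H/ACA proteins *CBF5* and *GAR1*, and the nucleolin-like *NSR1*, were called lower in both strains, with medians of -5.37 in WT (41.3-fold) and -2.22 in *snf1*∆ (4.66-fold) on the log2 scale. *NOP1* (YDL014W, chrIV:427364-428347, plus strand) had 1110, 1030 and 944 CPM at log and then 31.9, 27.6 and 16.2 at 24 hr in WT, 928, 827 and 831 and then 193, 205 and 154 in *snf1*∆, and 960 and then 132 and 118 in JS1416. *NOP1* encodes fibrillarin, the rRNA 2′-O-methyltransferase of box C/D snoRNPs. The 3 strains did not overlap at 24 hr, where WT was lowest and *snf1*∆ highest. In WT it fell 41.1-fold (log2 -5.36 ± 0.24 (SE), adjusted p = 6.94e-14) and in *snf1*∆ 4.69-fold (log2 -2.23 ± 0.21 (SE), adjusted p = 1.32e-08). In the same order, *NOP56* (YLR197W, chrXII:546097-547611, plus strand) had 715, 716 and 752 CPM and then 7.89, 7.86 and 7.99 in WT, 559, 629 and 584 and then 81.3, 87 and 102 in *snf1*∆, and 624 and then 26.6 and 24.4 in JS1416. Nop56 is a core scaffold of the same snoRNPs. *NOP56* had the largest fall of the 40 in WT, 91.8-fold (log2 -6.52 ± 0.19 (SE), adjusted p = 9.56e-16), and fell 6.56-fold in *snf1*∆. The difference between these responses was 3.81 ± 0.23 on the log2 scale (SE, adjusted p = 3.37e-10).

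For *GAR1* (YHR089C, chrVIII:282681-283298, minus strand) the WT libraries held 528, 482 and 488 CPM at log and then 12.3, 10.1 and 9.21 at 24 hr, the *snf1*∆ libraries 460, 398 and 381 and then 78.6, 96.1 and 80.1, and the JS1416 libraries 587 and then 33.2 and 30.4. Gar1 belongs to the box H/ACA snoRNPs, which make pseudouridine. Its libraries at 24 hr were again ordered WT, JS1416 and *snf1*∆ with no overlap. The fall in WT was 47.8-fold (log2 -5.58 ± 0.18 (SE), adjusted p = 2.88e-15), and in *snf1*∆ 4.86-fold. *NOP58*, *CBF5* and *NSR1* fell between 34.4 and 41.6-fold in WT and between 3.61 and 4.63-fold in *snf1*∆.

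UtpA is the first complex of the small subunit processome to bind the nascent rRNA, and UtpB joins it. All 6 UtpA genes were called lower in both strains, with medians of -3.63 in WT and -1.28 in *snf1*∆ on the log2 scale, and so were both UtpB genes, at -3.86 and -1.19. *UTP10* (YJL109C, chrX:212000-217309, minus strand) had 204, 179 and 172 CPM at log and then 17.5, 20.7 and 15.8 at 24 hr in WT, 171, 170 and 164 and then 76.2, 86.3 and 78.6 in *snf1*∆, and 209 and then 42.2 and 38.6 in JS1416. It encodes the largest UtpA subunit, and fell 10.3-fold in WT (log2 -3.36 ± 0.27 (SE), adjusted p = 3.45e-10) and 2.1-fold in *snf1*∆ (log2 -1.07 ± 0.24 (SE), adjusted p = 0.000589). For *UTP8* (YGR128C, chrVII:747950-750091, minus strand) the WT libraries held 82.3, 85.6 and 79.5 CPM at log and then 2.92, 4.72 and 2.43 at 24 hr, the *snf1*∆ libraries 61.6, 74.1 and 62.6 and then 30.1, 22.7 and 35.9, and the JS1416 libraries 87.1 and then 7.33 and 7.56. At 24 hr *UTP8* was between 2.43 and 4.72 CPM in WT and at 22.7 CPM or more in *snf1*∆, with JS1416 in between. The fall was 24.7-fold in WT (log2 -4.63 ± 0.21 (SE), adjusted p = 8.62e-14) and 2.22-fold in *snf1*∆ (log2 -1.15 ± 0.16 (SE), adjusted p = 3.24e-06). In the same order, *UTP4* (YDR324C, chrIV:1114433-1116763, minus strand) had 97.1, 115 and 96.5 CPM and then 7.02, 6.74 and 6.78 in WT, 77.7, 98 and 72.7 and then 23.8, 25.2 and 34.2 in *snf1*∆, and 74 and then 9.49 and 6.61 in JS1416. *UTP4* fell 15-fold in WT and 2.96-fold in *snf1*∆ (adjusted p = 4.02e-12 and 8.66e-07). JS1416 overlapped WT for *UTP4* at 24 hr, in contrast to *UTP8* and *UTP10*. *UTP15* (YMR093W, chrXIII:454015-455556, plus strand) had 78.2, 66 and 65.8 CPM at log and then 11.7, 8.31 and 8.51 at 24 hr in WT, 60.4, 58.6 and 60.1 and then 19, 25.6 and 22.8 in *snf1*∆, and 92 and then 16.6 and 14.9 in JS1416. *UTP15* fell 7.45-fold in WT and 2.64-fold in *snf1*∆ (adjusted p = 7.03e-11 and 1.57e-06). *UTP15*, whose promoter held RRPE without PAC, had the least difference between *snf1*∆ and WT among these 6 genes at 24 hr, 1.26 ± 0.21 on the log2 scale (SE, adjusted p = 3.33e-05).

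**Figure D2:**
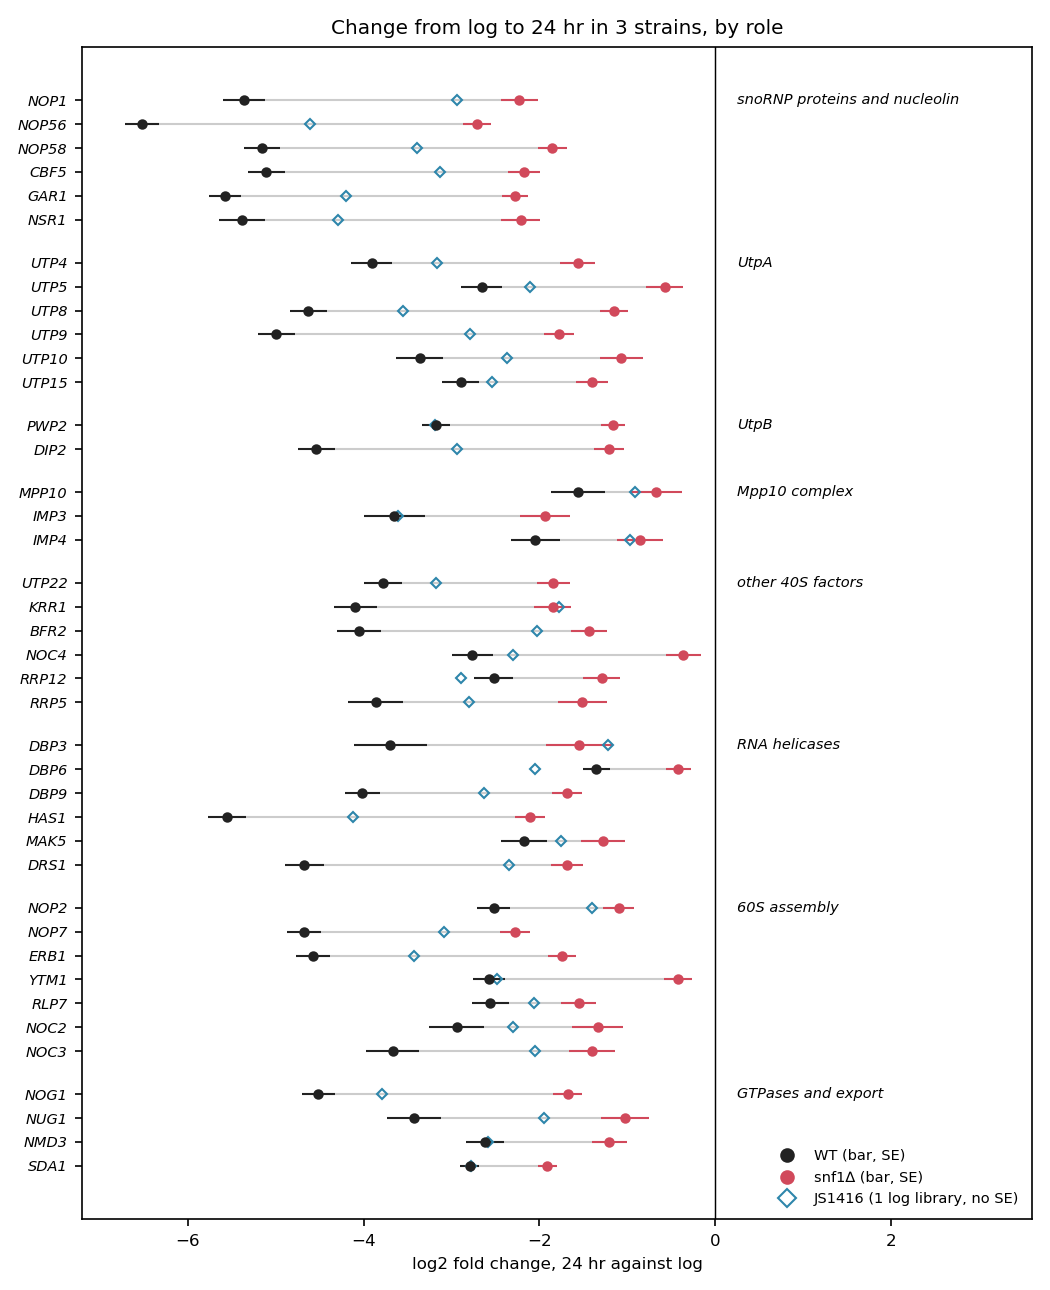
Log2 fold change from log to 24 hr for each of the 40 genes, in rows grouped by role, with WT in black and *snf1*∆ in red (bars, SE) and JS1416 as open blue diamonds without an error because it had 1 log library. WT lies left of *snf1*∆ in all 40 rows, from *NOP56* at -6.52 to *DBP6* at -1.35 in WT.

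For *DIP2* (YLR129W, chrXII:399657-402488, plus strand) the WT libraries held 134, 153 and 137 CPM at log and then 5.56, 6.51 and 6.08 at 24 hr, the *snf1*∆ libraries 123, 130 and 121 and then 54.4, 52.4 and 54.9, and the JS1416 libraries 136 and then 19.1 and 16.1. Dip2 is a WD-repeat subunit of UtpB. *DIP2* had 5.56 to 6.51 CPM in WT at 24 hr and 52.4 to 54.9 in *snf1*∆, with falls from log of 23.2 and 2.31-fold (log2 -4.54 ± 0.21 (SE), adjusted p = 7.63e-14 in WT). *PWP2*, the other UtpB gene listed, fell 9.04 and 2.25-fold.

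The Mpp10 complex, which acts with the U3 snoRNA on the pre-rRNA, had the smallest median change of the 8 roles. Its 3 genes had a median of -2.05 in WT and -0.86 in *snf1*∆ on the log2 scale. *MPP10* (YJR002W, chrX:438865-440646, plus strand) had 119, 136 and 112 CPM at log and then 41.5, 36.4 and 46.9 at 24 hr in WT, 87.8, 112 and 84.9 and then 58.2, 59.1 and 61.1 in *snf1*∆, and 67.6 and then 33.7 and 38.2 in JS1416. The WT and *snf1*∆ libraries did not overlap at 24 hr, but the difference did not pass (log2 0.51 ± 0.31 (SE), adjusted p = 0.149). *MPP10* fell 2.95-fold in WT (log2 -1.56 ± 0.31 (SE), adjusted p = 0.000104) and was 1.6-fold lower in *snf1*∆ without passing (log2 -0.67 ± 0.30 (SE), adjusted p = 0.0518). It was called in both comparisons without the 2 doubted 48 hr libraries (adjusted p = 0.00254 and 5.92e-05). In the same order, *IMP4* (YNL075W, chrXIV:485607-486479, plus strand) had 55.9, 67.5 and 53.9 CPM and then 13.7, 16.4 and 12.9 in WT, 42.6, 58.9 and 42.9 and then 23.8, 22.9 and 32.3 in *snf1*∆, and 37.4 and then 19.2 and 18.9 in JS1416. *IMP4* fell 4.13-fold in WT and 1.81-fold in *snf1*∆, both called. The third gene, *IMP3*, had 2.02 to 3.51 CPM in WT at 24 hr, from 29.4 to 44.3 at log, and fell 12.5-fold.

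The 6 other factors of the 40S pathway, *UTP22*, *KRR1*, *BFR2*, *NOC4*, *RRP12* and *RRP5*, were called lower in WT, with a median of -3.82 on the log2 scale. In *snf1*∆, 5 of them were called and *NOC4* was not (log2 -0.36 ± 0.20 (SE), adjusted p = 0.111). For *RRP5* (YMR229C, chrXIII:725934-731123, minus strand) the WT libraries held 269, 260 and 253 CPM at log and then 19.9, 19.3 and 14.8 at 24 hr, the *snf1*∆ libraries 226, 234 and 212 and then 74.6, 81.3 and 79.4, and the JS1416 libraries 252 and then 38.1 and 34.4. Rrp5 acts in the processing of both subunits' rRNA. At 24 hr its level in *snf1*∆ was 74.6 CPM or more, JS1416 was at 34.4 and 38.1, and WT at 19.9 or less. *RRP5* fell 14.6-fold in WT (log2 -3.86 ± 0.31 (SE), adjusted p = 3.94e-10) and 2.85-fold in *snf1*∆. *NOC4*, which works with Nop14 in 40S assembly, fell 6.78-fold in WT. *UTP22*, with neither motif in its promoter, fell 13.7-fold in WT and 3.59-fold in *snf1*∆.

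The DEAD-box RNA helicases, which remodel rRNA and release factors, spanned nearly the whole range. Their median was -3.86 in WT and -1.62 in *snf1*∆ on the log2 scale, and all 6 were called lower in both. *HAS1* (YMR290C, chrXIII:850074-851591, minus strand) had 171, 161 and 150 CPM at log and then 3.8, 3.82 and 2.78 at 24 hr in WT, 134, 131 and 119 and then 24.8, 32.2 and 31.5 in *snf1*∆, and 206 and then 10.1 and 14 in JS1416. Has1 serves both subunits. *HAS1* fell 47-fold in WT (log2 -5.55 ± 0.22 (SE), adjusted p = 1.09e-14) and 4.32-fold in *snf1*∆. In the same order, *DBP6* (YNR038W, chrXIV:695595-697484, plus strand) had 37.6, 30.5 and 33.2 CPM and then 13.7, 15.9 and 10.3 in WT, 35.2, 30.4 and 30 and then 23.1, 21.4 and 26.6 in *snf1*∆, and 53.5 and then 12.6 and 13.2 in JS1416. Dbp6 acts early in pre-60S assembly. With 2.55-fold (log2 -1.35 ± 0.16 (SE), adjusted p = 9.38e-08), *DBP6* had the smallest fall of the 40 in WT, and in *snf1*∆ it fell 1.34-fold. For *MAK5* (YBR142W, chrII:528317-530638, plus strand) the WT libraries held 103, 106 and 103 CPM at log and then 20.8, 20.9 and 27.1 at 24 hr, the *snf1*∆ libraries 82.7, 101 and 82.2 and then 36.6, 34.9 and 38.7, and the JS1416 libraries 80.6 and then 22.3 and 25.5. *MAK5* fell 4.52-fold in WT and 2.42-fold in *snf1*∆, and at 24 hr JS1416 overlapped WT.

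In the same order, *DBP3* (YGL078C, chrVII:360288-361859, minus strand) had 311, 302 and 286 CPM and then 21.1, 25.4 and 22.8 in WT, 256, 259 and 256 and then 86.6, 82 and 94.4 in *snf1*∆, and 257 and then 104 and 117 in JS1416. Dbp3 promotes cleavage in the first internal spacer. JS1416 was the highest strain here at 24 hr, above every *snf1*∆ library, which held for no other gene of the 40. *DBP3* fell 13-fold in WT (log2 -3.70 ± 0.41 (SE), adjusted p = 6.33e-08) and 2.93-fold in *snf1*∆ (log2 -1.55 ± 0.37 (SE), adjusted p = 0.00111).

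All 7 large subunit assembly genes were called lower in both strains (medians -2.94 and -1.40 on the log2 scale), as were the 4 genes for GTPases and export factors (-3.11 and -1.44). *NOP7* (YGR103W, chrVII:695417-697234, plus strand) had 489, 496 and 472 CPM at log and then 17.8, 16.2 and 22.6 at 24 hr in WT, 363, 408 and 330 and then 68.5, 70.3 and 87.3 in *snf1*∆, and 298 and then 33.8 and 36.3 in JS1416. Nop7, Erb1 and Ytm1 form a complex needed to process the 27S rRNA. *NOP7* fell 25.6-fold in WT (log2 -4.68 ± 0.19 (SE), adjusted p = 2.4e-14) and 4.86-fold in *snf1*∆. For *NOG1* (YPL093W, chrXVI:370978-372921, plus strand) the WT libraries held 289, 244 and 261 CPM at log and then 10.2, 10.1 and 14.1 at 24 hr, the *snf1*∆ libraries 230, 214 and 214 and then 69, 65.9 and 70.5, and the JS1416 libraries 378 and then 25 and 29.7. Nog1 is a nucleolar GTPase of the pre-60S particle. *NOG1* fell 22.8-fold in WT (log2 -4.51 ± 0.19 (SE), adjusted p = 2.49e-14) and 3.2-fold in *snf1*∆. In the same order, *SDA1* (YGR245C, chrVII:979765-982068, minus strand) had 203, 205 and 190 CPM and then 30.4, 27.9 and 28 in WT, 175, 167 and 159 and then 46.9, 42 and 44.4 in *snf1*∆, and 143 and then 21.9 and 19.8 in JS1416. Sda1 is needed for export of the pre-60S particle. *SDA1* had 27.9 to 30.4 CPM in WT and 42 to 46.9 in *snf1*∆ at 24 hr, and its falls of 6.94 and 3.76-fold had the smallest difference of the 39 called, 0.89 ± 0.15 on the log2 scale (SE, adjusted p = 3.81e-05).

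Across the 40 genes, those with more RNA per length at log in WT had the larger falls. The log2 CPM per kb of coding length in WT at log and the log2 fold change to 24 hr had a Pearson correlation of -0.62 and a Spearman correlation of -0.52 (n = 40 genes). The log libraries enter both measures, so that their errors are shared. *NOP1* had 1040 CPM per kb in WT at log and *DBP6* 17.9, and at 24 hr they had 25.6 and 7.04.

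At log, none of the 40 genes passed the test between *snf1*∆ and WT, although all 40 log2 differences were below 0, with a median of -0.26 and a range from -0.45 to -0.02. Over all genes tested the median was -0.04 and 2.12% were called in either direction. At an unadjusted p under 0.05, 4 of the 40 were lower, *NSR1*, *HAS1*, *NOP7* and *SDA1*, and DESeq2 called 1. With only these log libraries in the fit 8 were called lower, beside 433 of 6440 genes. Without the 2 doubted 48 hr libraries 2 were, beside 234 of 6615 genes. *NOP7* had 489, 496 and 472 CPM in WT and 363, 408 and 330 in *snf1*∆, with no overlap (log2 -0.40 ± 0.16 (SE), adjusted p = 0.341). The single JS1416 library at log had a median difference of 0.09 on the log2 scale from *snf1*∆ and of -0.19 from WT over the 40, with no test.

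At 24 hr, 39 of the 40 were higher in *snf1*∆ than in WT, against 33.7% of all genes, with a median of 2.02 on the log2 scale (4.06-fold) and a range from 0.51 to 3.51. The median over all genes was 0.10. *MPP10* was the exception. The 3 largest differences were in *NOP56* (11.4-fold, log2 3.51 ± 0.18 (SE), adjusted p = 6.78e-12), *UTP8* (8.93-fold, log2 3.16 ± 0.22 (SE), adjusted p = 2.32e-10) and *DIP2* (8.85-fold, log2 3.15 ± 0.20 (SE), adjusted p = 1.07e-10). The 3 smallest were in *MPP10*, *SDA1* (1.55-fold, log2 0.63 ± 0.11 (SE), adjusted p = 3.39e-05) and *MAK5* (1.6-fold, log2 0.67 ± 0.26 (SE), adjusted p = 0.0311), and the call of *MAK5* was lost without WT replicate 1 or 2 or *snf1*∆ replicate 1 or 3 (adjusted p = 0.0557 to 0.0946). By role, the median was highest for the snoRNP proteins (2.94) and lowest for the Mpp10 complex (0.90) on the log2 scale.

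JS1416 at 24 hr was lower than *snf1*∆ for 35 of the 40 (27.4% of all genes were), with a median of -1.28 on the log2 scale (2.42-fold) beside -0.16 over all genes. It was higher than WT for 27 (20.2% of all genes were), with a median of 1.001 (2-fold). These comparisons share their JS1416 libraries. With library size alone, which shifts the median of all genes from -0.06 to -0.45 for JS1416 against WT, 15 were higher and 4 lower than WT. Of all 6616 genes, 713 were then higher and 2628 lower. Both JS1416 libraries lay above every WT library and below every *snf1*∆ library for 30 of the 40, which held for 14.9% of all genes. On a log2 scale from the *snf1*∆ mean (0) to the WT mean (1), the median position of JS1416 was 0.52, with quartiles at 0.47 and 0.77. *SDA1* was the 1 gene called lower in JS1416 than in WT, with 21.9 and 19.8 CPM against 30.4, 27.9 and 28 (log2 -0.46 ± 0.12 (SE), adjusted p = 0.00484).

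The largest differences between JS1416 and *snf1*∆ were in *UTP8* (4.01-fold lower, log2 -2.00 ± 0.21 (SE), adjusted p = 2.45e-07), *NOP56* (3.53-fold, log2 -1.82 ± 0.18 (SE), adjusted p = 1.05e-07) and *UTP4* (3.41-fold, log2 -1.77 ± 0.25 (SE), adjusted p = 1.15e-05). The difference of *UTP4* in JS1416 from WT did not pass the test (log2 0.27 ± 0.28 (SE), adjusted p = 0.466). The genes not called were *DBP3*, *IMP4*, *UTP15*, *MAK5* and *MPP10*. *DBP3* had 104 and 117 CPM in JS1416 and 86.6, 82 and 94.4 in *snf1*∆ (log2 0.33 ± 0.41 (SE), adjusted p = 0.532), and with library size alone its log2 difference was -0.49. *IMP4* had 19.2 and 18.9 against 23.8, 22.9 and 32.3 (log2 -0.48 ± 0.31 (SE), adjusted p = 0.204), and *UTP15* 16.6 and 14.9 against 19, 25.6 and 22.8 (log2 -0.51 ± 0.22 (SE), adjusted p = 0.0632). Without the 2 doubted 48 hr libraries all 40 were called, 39 lower and *DBP3* higher, beside 2401 lower and 1712 higher of 6615 genes. The call of *NOP1* was the weakest, with an adjusted p that rounded to 0.05, and was lost under 8 alternatives. Without JS1416 replicate 2 at 24 hr, which left a single library in that group, the median of the 40 was -1.32. With library size alone the median of all genes was -0.98 in place of -0.16 and that of the 40 was -2.09, so that the 40 lay below all genes by a similar amount.

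By role, JS1416 was above WT at 24 hr for all 6 snoRNP proteins, with a median of 1.63 on the log2 scale. Of the 3 Mpp10 complex genes none was called against WT (median -0.20), and of the 7 large subunit assembly genes 4 were (median 0.68). *YTM1*, *RLP7* and *NOC2* were the 3 of these that were not.

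**Figure D3:**
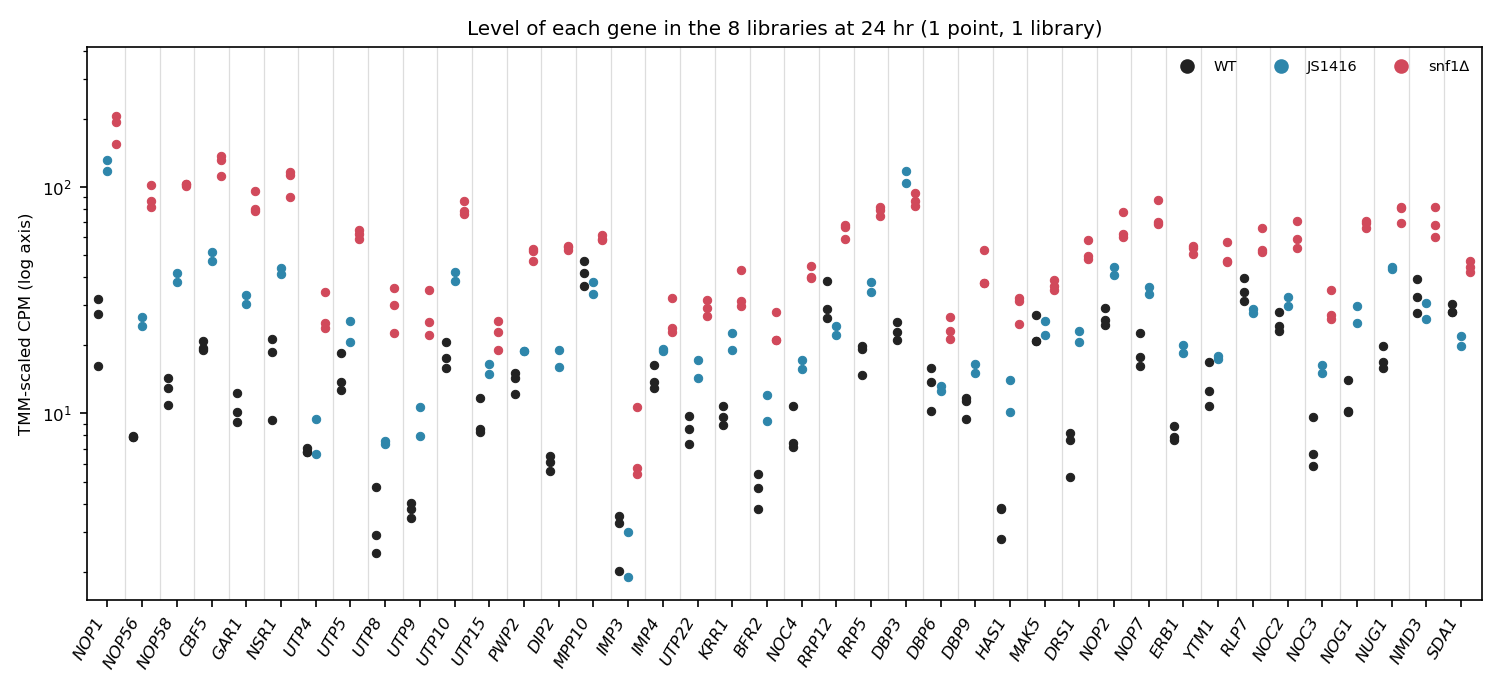
TMM-scaled CPM (log axis) of each of the 40 genes in the 8 libraries at 24 hr, with each point 1 library, WT in black, JS1416 in blue and *snf1*∆ in red. JS1416 lies between the other strains in 30 genes, and above *snf1*∆ in *DBP3*.

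Between 24 hr and 48 hr WT and *snf1*∆ moved in opposite directions. In WT, 30 of the 40 rose, against 19.6% of all genes, with a median of 1.04 on the log2 scale (2.06-fold). In *snf1*∆, 27 fell, against 21.5% of all genes, with a median of -0.76 (1.69-fold), and *DBP3* rose, where 19.8% of all genes rose. The difference between these changes passed for 31 of the 40, all lower in *snf1*∆, against 22% of all genes (median -1.92). Without the 2 doubted libraries, 35 rose in WT, beside 25.8% of all genes. In *snf1*∆ 28 then fell and 3 rose, *DBP3*, *IMP4* and *MAK5* (27.8% of all genes fell and 26.2% rose), and 32 passed for the difference (28.8%). *NOP56* had 7.89, 7.86 and 7.99 CPM in WT at 24 hr and 43.8, 56.9 and 36.1 at 48 hr, and rose 5.74-fold (log2 2.52 ± 0.17 (SE), adjusted p = 2.59e-08). *HAS1* rose 6.1-fold in WT, from 3.82 CPM or less to 19.1 or more (log2 2.61 ± 0.22 (SE), adjusted p = 9.09e-08). In *snf1*∆, *NOP56* went from 81.3, 87 and 102 CPM to 36.7, 39.4 and 39.2 and *HAS1* from 24.8, 32.2 and 31.5 to 13.4, 7.34 and 14.8, so that for *NOP56* WT and *snf1*∆ overlapped at 48 hr and for *HAS1* every *snf1*∆ library was below WT. The largest fall in *snf1*∆ was in *UTP8* (log2 -1.70 ± 0.22 (SE), adjusted p = 5.17e-06), from 30.1, 22.7 and 35.9 CPM to 9.33, 6.67 and 11.1. Without the doubted libraries it was -1.89 ± 0.28 (SE, adjusted p = 3.01e-06).

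In JS1416, 12 of the 40 rose between 24 hr and 48 hr, against 9.98% of all genes, with a median of 0.49 on the log2 scale. Without the doubted libraries 9 rose, 1 fell (*DBP3*) and the median was 0.23, and 17.2% of all genes rose. With only the 24 hr and 48 hr libraries of JS1416 in the fit none passed, and none of all 6503 genes did. Without JS1416 replicate 1 or 2 at 24 hr a single library was left there, and the median of the 40 was 0.48 or 0.51. The count was 5 without replicate 1 at 48 hr, beside 745 of 6615 genes. It was 19 without replicate 2 at 48 hr, beside 902 of 6613 genes. With library size alone, 35 rose, beside 2918 of all 6616 genes, and the median of all genes shifted from 0.10 to 0.58.

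At 48 hr, *snf1*∆ was higher than WT for 5 of the 40 (*UTP15*, *KRR1*, *DBP3*, *NOC3* and *NUG1*) and lower for 3 (*UTP4*, *HAS1* and *SDA1*), where 18.1% of all genes were higher and 17.7% lower. The median was 0.20 on the log2 scale. Without the doubted libraries 14 were higher and 3 lower, beside 25% and 26.5% of all genes. With library size alone 1 was higher and 11 were lower, beside 491 higher and 2928 lower of all 6616 genes. With only these groups in the fit 2 were higher, beside 709 of 6295 genes. Left out singly, WT replicate 3 left 3 higher, *snf1*∆ replicate 1 or 2 left 2, and *snf1*∆ replicate 3 left 10. Over all genes, the same 4 fits called 950 of 6613, 843 of 6616, 857 of 6617 and 1457 of 6616 higher. *UTP10*, *HAS1* and *SDA1* were the 3 lower genes without the doubted libraries.

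The single genes show how the labelled groups mix. *DBP3* had 47.1, 46.7 and 42.5 CPM in WT, 228, 227 and 76.9 in *snf1*∆ and 223, 77.2 and 47.3 in JS1416 at 48 hr. The replicates of 223 CPM or more were *snf1*∆ 1 and 2 and JS1416 1, and the others of these strains were at 77.2 or less. *DBP3* was higher in *snf1*∆ than in WT (log2 1.96 ± 0.39 (SE), adjusted p = 0.00058), by 2.33 ± 0.14 on the log2 scale without the doubted libraries. *MPP10* had 48.6, 40 and 43.7 CPM in WT, 68.2, 70.7 and 35.5 in *snf1*∆ and 79.7, 33.2 and 17.1 in JS1416. *IMP4* had 26.5, 22.2 and 19.2 CPM in WT, 48.4, 41.4 and 23.3 in *snf1*∆ and 43.2, 19.8 and 17.1 in JS1416. *MAK5* had 29.3, 34.9 and 29.1 CPM in WT, 56, 54 and 22.8 in *snf1*∆ and 55.1, 26.6 and 26.3 in JS1416. In each of these 3, the same 3 libraries lay above the rest of their strains. *RRP5* had 35.2, 41.6 and 31.4 CPM in WT, 57.1, 63.4 and 24.4 in *snf1*∆ and 68.9, 35.4 and 22.3 in JS1416 at this time. *UTP15* had 11.8, 14.4 and 10.1 CPM in WT, 23.3, 23.3 and 14.3 in *snf1*∆ and 23.8, 14.3 and 15.8 in JS1416. Both showed the same split.

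In *UTP10* the library labelled *snf1*∆ 3 was the highest of its strain, with 35.9, 44.5 and 24.4 CPM in WT, 24.5, 18.7 and 52 in *snf1*∆ and 32.1, 43.4 and 30.2 in JS1416 at 48 hr. *HAS1* had 21.3, 22.4 and 19.1 CPM in WT, 13.4, 7.34 and 14.8 in *snf1*∆ and 15.3, 18.4 and 13.1 in JS1416, so that every library of the other strains was below WT. The same held for *SDA1*, with 32.9, 35.4 and 36 CPM in WT, 26.8, 27.4 and 27 in *snf1*∆ and 30.2, 27.4 and 28.9 in JS1416. The snoRNP genes *NOP1*, *NOP56* and *GAR1* were called in neither strain against WT at 48 hr. *NOP1* had 73.1, 86.6 and 60.9 CPM in WT, 105, 91.4 and 99.2 in *snf1*∆ and 101, 119 and 77.5 in JS1416, where *snf1*∆ was above WT without overlap and JS1416 overlapped both. *NOP56* had 43.8, 56.9 and 36.1 CPM in WT, 36.7, 39.4 and 39.2 in *snf1*∆ and 47.8, 39.7 and 55.1 in JS1416, with all strains overlapping. *GAR1* had 34.6, 42.1 and 40.5 CPM in WT, 44.9, 50 and 40.3 in *snf1*∆ and 51.3, 41.3 and 59.1 in JS1416, and WT overlapped both other strains. Large subunit factors came next. *NOP7* had 41.4, 44 and 40.2 CPM in WT, 56.6, 46 and 45.6 in *snf1*∆ and 64.8, 39.1 and 51.2 in JS1416, where *snf1*∆ lay above WT. *NOG1* had 34.1, 43.7 and 25.2 CPM in WT, 31.5, 34.7 and 33.9 in *snf1*∆ and 40.6, 38.9 and 44.6 in JS1416, and *snf1*∆ lay within the range of WT. For the remaining named genes *snf1*∆ overlapped WT. *UTP8* had 12.1, 13.4 and 10.9 CPM in WT, 9.33, 6.67 and 11.1 in *snf1*∆ and 9.52, 10.4 and 9.19 in JS1416. *UTP4* had 16.7, 19.5 and 10.2 CPM in WT, 6.41, 12 and 9.01 in *snf1*∆ and 11.8, 11.8 and 9.19 in JS1416. *DIP2* had 20.3, 25.9 and 17.5 CPM in WT, 20.4, 27.4 and 15.9 in *snf1*∆ and 31.2, 19.8 and 24.9 in JS1416. JS1416 was below WT for *UTP8* and overlapped it for *UTP4* and *DIP2*. *DBP6* had 18.3, 19.7 and 16.7 CPM in WT, 14.6, 13.3 and 17.5 in *snf1*∆ and 19.7, 17.3 and 21 in JS1416.

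None of the 40 passed edgeR's test between JS1416 and *snf1*∆ at 48 hr (median 0.04 on the log2 scale, and 0% of all genes were called), and none of the 40 had an unadjusted p under 0.05. DESeq2 also called none. Over all genes 275 had an unadjusted p under 0.05. Without the 2 doubted libraries the result changed. JS1416 was then lower for 12 and higher for 3, beside 24% and 21.8% of all genes, with a median of -0.28. The 2 libraries had been picked because they resembled the other strain in these same counts. Leaving them out thus favours calls between these strains by the choice itself, and the calls are no independent test. The 12 lower were *UTP15*, *MPP10*, *IMP4*, *KRR1*, *RRP5*, *DBP3*, *MAK5*, *RLP7*, *NOC2*, *NOC3*, *NUG1* and *NMD3*, and the 3 higher were *UTP10*, *NOC4* and *HAS1*. The largest was *DBP3*, at -1.74 ± 0.16 on the log2 scale (SE, edgeR adjusted p = 3.48e-09), whereas at 24 hr it was higher by 0.325 without them. Left out singly, JS1416 replicate 1 moved the count of lower genes from 0 to 7, beside 742 of 6615 genes.

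Against WT at 48 hr, JS1416 was higher for 4 of the 40 (*UTP15*, *KRR1*, *DBP3* and *NUG1*) and lower for *UTP22*, where 15.8% of all genes were higher and 15.2% lower. The median was 0.25 on the log2 scale. Without the doubted libraries 2 were higher (*NOC4* and *DBP3*) and 2 lower (*MPP10* and *SDA1*), beside 20.3% and 22% of all genes, with a median of 0.005. With library size alone 1 was higher and 7 were lower, beside 447 higher and 2391 lower of all 6616 genes. With only these groups in the fit none passed, beside 314 higher and 245 lower of 6458 genes. Left out singly, WT replicate 1 or 3 left 1 higher, JS1416 replicate 1 left 0 and JS1416 replicate 2 left 8. Of all genes, 800 of 6614, 748 of 6613, 1014 of 6615 and 1197 of 6613 were higher in these fits.

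**Figure D4:**
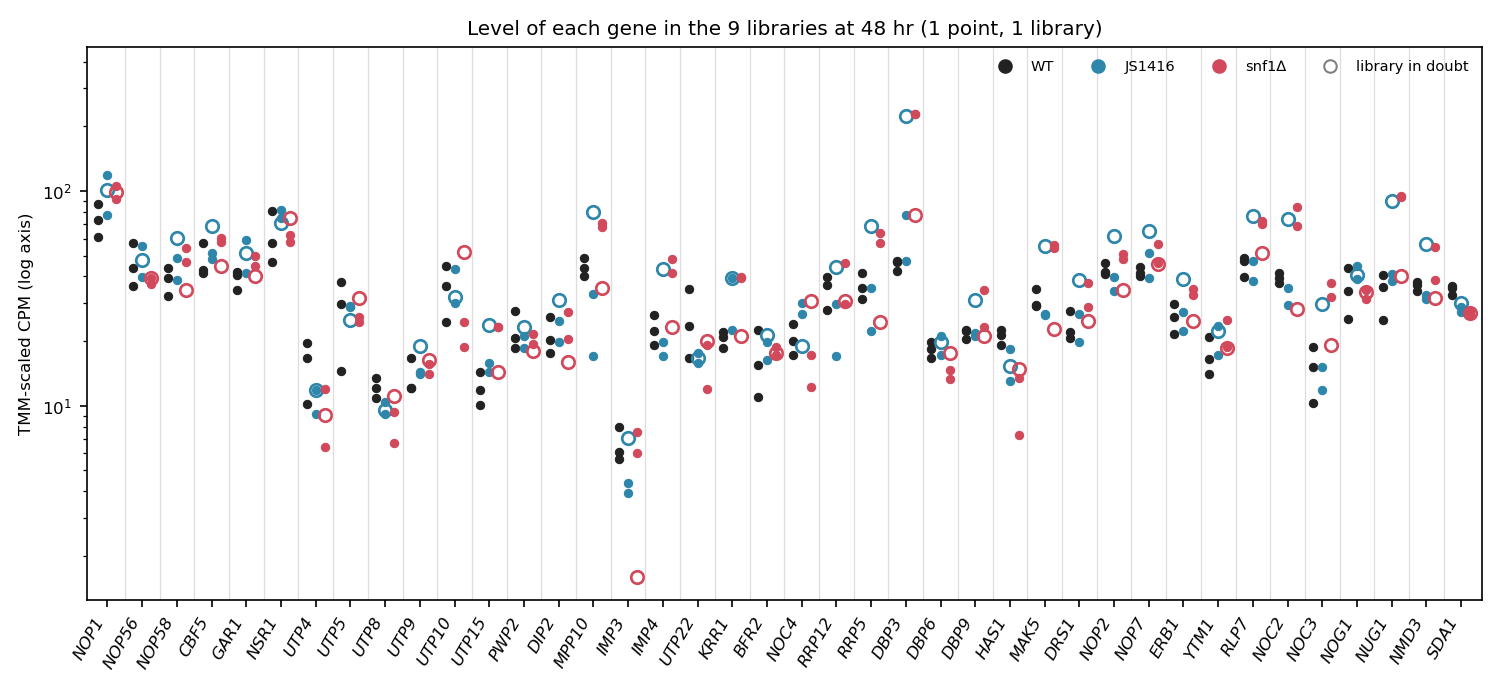
TMM-scaled CPM (log axis) of each of the 40 genes in the 9 libraries at 48 hr, with each point 1 library, WT in black, JS1416 in blue, *snf1*∆ in red, and the libraries labelled JS1416 replicate 1 and *snf1*∆ replicate 3 as open circles. The open blue circle lies beside the filled red points in genes such as *DBP3* (223 CPM beside 228 and 227), and the open red circle lies apart from them (76.9).

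Subunits of one complex were compared per length, as CPM per kb of coding length. The 3 Mpp10 complex genes lay within 1.03-fold of each other in WT at log, from 66.8 (*IMP3*) to 68.9 (*MPP10*), and within 4.38-fold at 24 hr, from 5.33 to 23.3. In *snf1*∆ the spread went from 1.04-fold to 2.53-fold. The 6 UtpA genes among the 40 spread 1.99-fold at log in WT, from 34.8 (*UTP10*) to 69.3 (*UTP9*), and 4.93-fold at 24 hr, from 1.57 (*UTP8*) to 7.73 (*UTP5*). The complex of Nop7, Erb1 and Ytm1 went from a 4.61-fold to a 3.11-fold spread in WT, with *NOP7*, the highest at both times, at 267 and then 10.4 CPM per kb. Box C/D proteins spread 3.55-fold at log and 4.9-fold at 24 hr in WT, and in JS1416 at 24 hr 7.55-fold, with *NOP1* at 127 and *NOP56* at 16.8 CPM per kb. These are descriptions of group means with no test.

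The 33 genes with both motifs had a median of -4.01 on the log2 scale from log to 24 hr in WT, and the 5 with PAC alone -2.18. Among all other genes tested, the 304 with both motifs had a median of -1.90, the 867 with PAC alone 0.15, the 507 with RRPE alone -0.67 and the 4229 with neither 0.24. These other genes include the 87 other ribosome biogenesis genes described below, of which 63 held both motifs. The 87 had a median of -3.23 in WT, and the medians by motif were not taken without them. In *snf1*∆ the medians were -1.56 and -1.27 for the members with both and with PAC alone, and -0.85 and 0.15 for the other genes with both and with neither. For *snf1*∆ against WT at 24 hr, members with both motifs had a median of 2.15 and those with PAC alone 0.67, beside 0.96 and 0.03 for other genes with both and with neither. The 3 smallest differences between these strains (*MPP10*, *SDA1* and *MAK5*) were all in genes with PAC alone, and *NOC3*, also with PAC alone, had a difference of 2.01. A group of 5 genes with no test is a description.

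**Figure D5:**
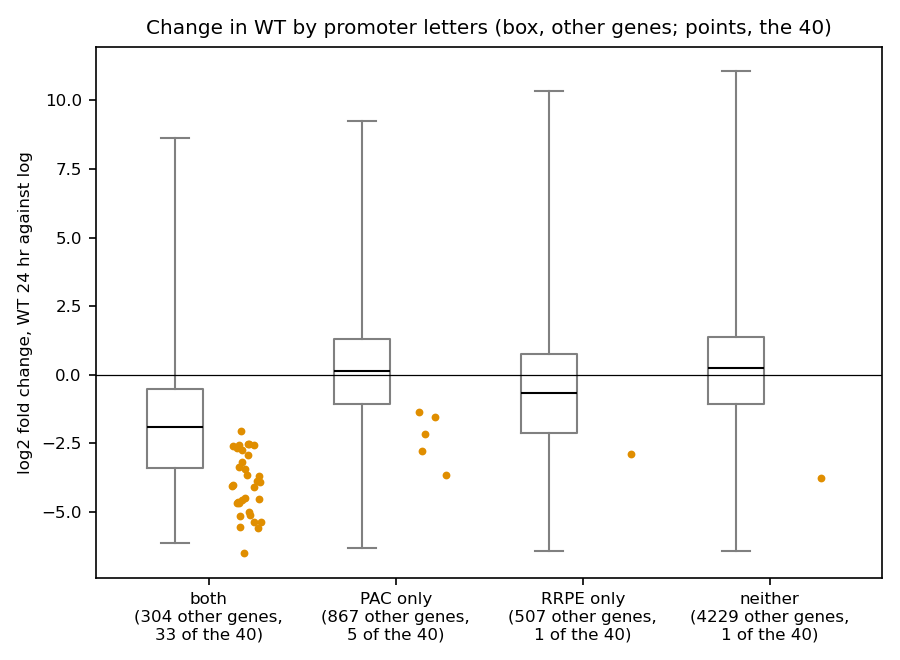
Log2 fold change in WT from log to 24 hr by the motifs in the promoter, with boxes for all other genes tested (line, median; box, quartiles; whiskers, lowest and highest gene) and orange points for the 40. The median is -1.90 for other genes with both motifs and 0.24 for those with neither, and the 40 lie at -1.35 or lower in every class. The other genes include 87 further ribosome biogenesis genes.

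Regulators of the set were read beside it. *DOT6*, the repressor gene, had 291, 221 and 271 CPM in WT at log and 3090, 3130 and 2700 at 24 hr, and rose by 3.51 on the log2 scale (SE 0.25, adjusted p = 6.09e-11). In *snf1*∆ it had 345, 260 and 318 at log and 883, 776 and 481 at 24 hr, and in JS1416 338 at log and 1980 and 2160 at 24 hr. At 24 hr the difference of *snf1*∆ from WT was -2.06 ± 0.24 on the log2 scale (SE, adjusted p = 2.4e-07), and JS1416 was above *snf1*∆ by 1.54 ± 0.25 (adjusted p = 5.13e-05). The libraries of the 3 strains did not overlap. *DOT6* was ordered opposite to the 30 of the 40 genes for which JS1416 lay between the other strains. *TOD6* and *STB3* rose in WT by 0.86 and 0.83 on the log2 scale (adjusted p = 0.0314 and 0.000165) and did not pass the test between *snf1*∆ and WT at 24 hr. *STB3*, also a repressor gene, was lower in JS1416 than in *snf1*∆ at 24 hr (log2 -0.72 ± 0.20 (SE), adjusted p = 0.00495) and than in WT (-0.69 ± 0.20, adjusted p = 0.00764), the reverse of *DOT6* between JS1416 and *snf1*∆. *SFP1* and *SCH9*, on the activating side, were lower in *snf1*∆ than in WT at 24 hr (log2 -0.69 and -0.74, adjusted p = 0.00051 and 0.000129), at the time when the 40 genes were higher. Their part in the result was not tested.

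Of 87 other ribosome biogenesis genes, none of them among the 40, 86 fell in WT between log and 24 hr (median -3.23 on the log2 scale) and 81 in *snf1*∆ (-1.48). Of all genes, 38.5% and 30.5% did. At 24 hr, 73 were higher and 3 lower in *snf1*∆ than in WT (median 1.54), 67 were lower and 2 higher in JS1416 than in *snf1*∆ (-1.03), and 34 were higher and 1 lower in JS1416 than in WT (0.52). In the direction named first, 33.7%, 27.4% and 20.2% of all genes were called. In the other direction 2005, 1332 and 1504 of 6616 were. From 24 hr to 48 hr, 64 rose in WT, beside 19.6% of all genes. In *snf1*∆ 35 fell and 10 rose, beside 21.5% and 19.8% of all genes. Without the doubted libraries 73 rose and 1 fell in WT, and in *snf1*∆ 32 fell and 19 rose, where 27.8% of all genes fell and 26.2% rose. PAC was in 88.5% of their promoters and RRPE in 81.6%.

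The 40 genes lie on 12 of the 16 nuclear chromosomes in the R64 build, each with 1 coding exon. None overlaps another gene of that annotation, to which 6008 of the 6692 counted ORFs were matched. Overlap with the counted ORFs that were not matched was not checked. No 75-base piece of their coding sequences occurs elsewhere in the genome, so reads of the length used would not be shared with a copy. *GAR1*, *UTP9*, *NOC4* and *NMD3* sit next to a gene of the other biogenesis list (*RPF1*, *RIX1*, *RRP15* and *DBP8*), which is 4 of 40, and 4.22% of all genes sit next to a gene of either list.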

How the data were processed

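RNA of 24 yeast samples was poly(A)-selected, made into directional libraries and sequenced as 75-base single-end reads. Per the study's methods, the authors aligned these reads with bowtie2 (sacCer3 build) and obtained a count per ORF from bedtools multicov, and the deposited counts are not normalized. The strand option, a mapping quality filter and the tool versions are not given in the sources used here. The 40 genes, the lists of 87 other biogenesis genes and of regulators, and the promoter motifs were chosen with earlier results of these data known. Groups came from the sample labels.

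The analysis used edgeR 4.0.16 and limma 3.58.1 in R 4.3.3. The filterByExpr function of edgeR, given the groups, kept 6616 of 6692 ORFs. TMM factors, 1 quasi-likelihood model with 9 groups (common dispersion 0.0378) and Benjamini-Hochberg adjustment over all 6616 genes were used, with calls at an adjusted p under 0.05, and an SE is the log2 fold change divided by the root of its F value. CPM carry no prior count, and log2 CPM in correlations between libraries used a prior count of 2. Comparisons with the single JS1416 library at log have no test. The smallest chi-square per gene between replicates was 1.6, so that no replicates agreed within sampling noise. That pair was WT replicates 1 and 2 at 24 hr, which had 18.4 and 20.9 with replicate 3. Next was *snf1*∆ replicates 1 and 2 at 48 hr, at 2, with 72.4 and 69.9 to the doubted replicate 3. Why these pairs were closer was not tested. The study's methods describe triplicate cultures with aliquots harvested at different times, so libraries of different times may share a culture. The model treated all libraries as independent, and p-values measure the spread between them. The genes named were, for each of 8 roles, the one with the highest mean CPM, and the 3 with the largest and smallest fall in WT and the 3 at each end of the comparisons of *snf1*∆ with WT and of JS1416 with *snf1*∆ at 24 hr, and any called against the direction of the rest. Replicate numbers were checked for pairing over 28 pairs of groups by the correlation of same-numbered deviations. In 1, WT and *snf1*∆ at log (0.128 to 0.514), every correlation was over 0.1.

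Promoters came from RefSeq's R64 annotation, to which 6008 ORFs were matched by name. Alternatives were RLE, upper-quartile and library size scaling, no count filter, a minimum of 10 counts in all libraries, a replicate block, fits of only the groups compared, DESeq2 1.42.0, each replicate left out in turn, and, chosen after the data were seen for comparisons before 48 hr, for WT from 24 hr to 48 hr and for the 87 other genes, leaving out the 2 libraries in doubt. The test of the difference between strains from 24 hr to 48 hr was also added after the data were seen. For every comparison, the 2 libraries in doubt were picked by their correlations in these same counts. Columns of values not used numbered 0.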

Additional observations from a re-analysis of the deposited data

Results flagged for a closer look

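The responses of *snf1*∆ and WT differed by the edgeR test of the difference itself for 39 of the 40 genes between log and 24 hr, where 29.3% of all genes were higher. Between 24 hr and 48 hr they differed for 31 of the 40, where 22% of all genes were lower, and for 32 without the 2 libraries in doubt, beside 28.8% of all genes. At the ends of the 24 hr differences called were *NOP56*, at 3.81 on the log2 scale, and *SDA1*, at 0.89. The fall of each was smaller in *snf1*∆ than in WT. All 39 differences at 24 hr were positive and all 31 at 48 hr were negative. The comparisons share their 24 hr libraries.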

How the results depend on the processing

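The direction and call of the named genes were the same in 1009 combinations of gene, comparison and alternative, with 17 that lost a call, 27 that gained one and 1 that turned direction, *DBP3* in JS1416 against *snf1*∆ at 24 hr with library size alone (log2 difference -0.49). Counts of called genes among the 40 were taken in 1 direction for each comparison, here and in the next paragraph. They were within 1.5 times in 193 alternatives and moved further in 26. Library size alone gave 15 higher for JS1416 against WT at 24 hr, 35 for JS1416 from 24 hr to 48 hr, 1 for *snf1*∆ against WT and 1 for JS1416 against WT at 48 hr. It moved the median of all genes, for example from 0.10 to -0.41 in WT from log to 24 hr, and the split of calls for JS1416 against *snf1*∆ at 24 hr from 1332 higher and 1812 lower to 500 and 4388. Without both libraries in doubt the count was 2 lower for *snf1*∆ against WT at log. At 48 hr it was 14 higher for the same strains (3 were lower) and 12 lower for JS1416 against *snf1*∆ (3 were higher). For JS1416 against WT at 48 hr it was 2 higher (2 were lower). With only the groups compared the counts were 8 lower at log, 0 for JS1416 from 24 hr to 48 hr, 2 higher for *snf1*∆ against WT at 48 hr and 0 for JS1416 against WT at 48 hr. DESeq2 called 1 at log. The cause of these shifts was not tested.

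Where each group compared kept 2 or more libraries, leaving out each replicate in turn gave 40 for WT from log to 24 hr. It gave 36 to 38 for *snf1*∆, 38 to 39 for the difference of responses and 0 at log. At 24 hr it gave 36 to 39 for *snf1*∆ against WT, 30 to 35 for JS1416 against *snf1*∆ and 22 to 26 for JS1416 against WT. Over all genes these fits called 2459 to 2491, then 1852 to 1925, 1710 to 1864 and 19 to 25. At 24 hr they called 1994 to 2124, 1500 to 1655 and 1146 to 1192. Without JS1416 replicate 1 or 2 at 24 hr, the median of the 40 was -1.19 or -1.32 against *snf1*∆ and 1.01 or 0.94 against WT. From 24 hr to 48 hr, leaving out replicates gave 25 to 28 for WT, 25 to 27 for *snf1*∆, 5 to 19 for JS1416 and 29 to 33 for the difference. Over all genes these were 1020 to 1215, 1086 to 1617, 657 to 902 and 1255 to 1696. At 48 hr it gave 2 to 10 higher for *snf1*∆ against WT, 0 to 7 lower for JS1416 against *snf1*∆ and 0 to 8 higher for JS1416 against WT. Over all genes these were 843 to 1457, 0 to 742 and 748 to 1197. With a replicate block the counts were 0 at log, 36 for JS1416 against *snf1*∆ (in place of 35, *UTP15* gained) and 25 for JS1416 against WT at 24 hr (in place of 27). With the longer letters GCGATGAG and GAAAAATTT, 67.5% and 55% of the promoters held PAC and RRPE, beside 3.93% and 6.08% of all promoters. The least deep library had 747098 counts, and a gene of the 40 had as few as 3 counts in a library, which limits the lowest levels.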
